A study of Mus musculus with 20 samples.

Results

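The genes of phase II metabolism described here encode the liver's main conjugating enzymes: the glutathione S-transferases (Gst), the UDP-glucuronosyltransferases (Ugt) and the cytosolic sulfotransferases (Sult). They were taken as the protein-coding genes of the GENCODE M21 basic annotation of GRCm38 (mm10) on chromosomes 1 to 19 whose symbols begin with Gsta, Gstm, Gstp, Gstt, Ugt1a, Ugt2a, Ugt2b, Ugt3a, Sult1, Sult2, Sult3 or Sult5. This gave 57 of 20807 protein-coding genes in 12 families: 18 Gst genes, 21 Ugt genes and 18 Sult genes. For each gene, peaks were counted in a window of the gene body plus 5 kb on each side, where a peak counted if it shared at least 1 bp with the window.

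The study compared liver chromatin of male C57BL/6 mice of an aging colony at 2 ages, 3 months (young) and 21 months (old). Chromatin from snap-frozen, unfractionated liver was precipitated with antibodies against histone H3 acetylated at lysine 14 (H3K14ac), against Setdb1, an enzyme that methylates lysine 9 of histone H3, or against Kap1 (Trim28), a corepressor that recruits Setdb1. The study describes the mice as wild type and names no treatment, and for each mark the labels separate the groups by age only. Batches and read depths are not given, so a difference in these cannot be told apart from age. Reads of 3 livers per age for H3K14ac and for Setdb1, and of 2 livers per age for Kap1, were combined before peaks were called, so that each mark has 1 peak list per age, which gives positions without heights. There was therefore no spread between livers to set a difference against, no difference between ages was tested, and the 95% Wilson intervals given with shares cover counting error only. In whole liver, fewer cells that carry a mark and less of the mark per cell cannot be told apart.

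Phase II enzymes attach glutathione, glucuronic acid or sulfate to drugs, hormones, bilirubin and bile acids, many of them products of the phase I cytochrome P450 enzymes, and so make them soluble enough to leave the body in bile or urine. Hepatocytes express many of these genes strongly, under the control of factors such as Nfe2l2 (Nrf2) and the receptors Ahr, Nr1i2 (Pxr) and Nr1i3 (Car). Acetylation of H3K14 is a mark of open chromatin at promoters and enhancers, whereas Setdb1 and Kap1 are best known for silencing of retrotransposons and zinc finger genes.

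The sequences that carry the results below are the promoters of the only members with H3K14ac at a start site at both ages, and the sites outside the wide Ugt1a1 peaks at which peaks of 1 mark at both ages, or of 2 marks at 1 age, shared at least 100 bases. The promoters (RefSeq, GRCm38.p6) are the 250 bases before the start site, on the strand of the gene, at chr3:108017974-108018223 (minus strand) for Gstm1 and chr1:88211709-88211958 (plus strand) for Ugt1a1, with capitals for the searched factor motifs. The other sequences are 1 of the overlapping peaks at each site, on the plus strand of GRCm38, with capitals for the bases shared by the lists. They lie upstream of Ugt1a1 (chr1:88210256-88210405), in introns of Ugt3a1 (chr15:9299745-9300042, chr15:9307170-9307388 and chr15:9309220-9309369), in introns of Sult2a5 (chr7:13654816-13655015) and Sult2a3 (chr7:14082156-14082305), in the flanks of Sult2a8 (chr7:14450425-14450574) and Sult2a7 (chr7:14460018-14460167 and chr7:14461900-14462049), and in an intron of Sult2a7 (chr7:14481606-14481755).
Gstm1 promoter: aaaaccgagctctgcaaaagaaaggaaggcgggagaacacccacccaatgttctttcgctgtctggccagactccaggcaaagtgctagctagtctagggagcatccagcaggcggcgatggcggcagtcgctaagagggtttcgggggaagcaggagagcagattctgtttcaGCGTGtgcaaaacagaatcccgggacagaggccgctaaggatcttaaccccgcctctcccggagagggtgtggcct
Ugt1a1 promoter: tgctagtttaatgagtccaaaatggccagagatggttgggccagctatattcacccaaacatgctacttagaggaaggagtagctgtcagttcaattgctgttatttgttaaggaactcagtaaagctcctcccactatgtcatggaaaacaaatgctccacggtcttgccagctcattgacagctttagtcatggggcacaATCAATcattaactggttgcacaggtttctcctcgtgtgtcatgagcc
Ugt1a1 upstream Kap1 site: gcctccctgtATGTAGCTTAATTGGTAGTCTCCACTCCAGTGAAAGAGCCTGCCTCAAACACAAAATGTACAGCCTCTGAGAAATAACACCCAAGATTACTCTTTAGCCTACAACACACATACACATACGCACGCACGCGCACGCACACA
Ugt3a1 site in 4 lists: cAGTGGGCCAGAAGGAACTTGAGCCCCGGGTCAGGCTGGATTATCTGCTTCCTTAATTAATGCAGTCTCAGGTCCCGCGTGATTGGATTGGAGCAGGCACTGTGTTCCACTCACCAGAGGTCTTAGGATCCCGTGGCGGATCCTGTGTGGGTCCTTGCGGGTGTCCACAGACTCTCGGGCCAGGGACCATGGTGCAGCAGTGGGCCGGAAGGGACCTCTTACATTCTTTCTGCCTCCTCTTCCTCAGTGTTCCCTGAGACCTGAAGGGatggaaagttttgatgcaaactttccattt
Ugt3a1 Kap1 site of both ages: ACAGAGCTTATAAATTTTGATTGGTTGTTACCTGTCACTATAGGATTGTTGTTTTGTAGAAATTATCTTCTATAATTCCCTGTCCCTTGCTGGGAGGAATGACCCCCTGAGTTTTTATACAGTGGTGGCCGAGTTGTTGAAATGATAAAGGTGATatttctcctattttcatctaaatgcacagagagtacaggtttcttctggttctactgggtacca
Ugt3a1 site of Setdb1 and Kap1 in old liver: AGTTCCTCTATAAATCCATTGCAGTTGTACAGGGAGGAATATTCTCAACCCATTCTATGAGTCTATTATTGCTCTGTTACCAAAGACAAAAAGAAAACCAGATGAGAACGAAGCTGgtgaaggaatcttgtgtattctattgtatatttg
Sult2a5 Setdb1 site of both ages: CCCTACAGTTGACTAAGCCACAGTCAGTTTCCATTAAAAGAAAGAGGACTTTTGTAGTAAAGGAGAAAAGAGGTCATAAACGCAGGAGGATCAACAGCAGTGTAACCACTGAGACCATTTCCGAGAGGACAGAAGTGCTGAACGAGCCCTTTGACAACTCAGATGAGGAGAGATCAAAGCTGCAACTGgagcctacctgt
Sult2a3 Kap1 site of both ages: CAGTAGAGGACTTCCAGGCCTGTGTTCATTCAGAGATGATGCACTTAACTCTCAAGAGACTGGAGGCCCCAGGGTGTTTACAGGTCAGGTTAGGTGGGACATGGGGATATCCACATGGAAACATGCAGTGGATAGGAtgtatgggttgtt
Sult2a8 site of H3K14ac and Kap1 in old liver: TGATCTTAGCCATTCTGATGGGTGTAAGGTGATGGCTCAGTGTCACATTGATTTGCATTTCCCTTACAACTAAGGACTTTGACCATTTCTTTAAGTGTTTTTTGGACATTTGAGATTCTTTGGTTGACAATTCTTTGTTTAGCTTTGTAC
Sult2a7 site of H3K14ac and Kap1 in young liver: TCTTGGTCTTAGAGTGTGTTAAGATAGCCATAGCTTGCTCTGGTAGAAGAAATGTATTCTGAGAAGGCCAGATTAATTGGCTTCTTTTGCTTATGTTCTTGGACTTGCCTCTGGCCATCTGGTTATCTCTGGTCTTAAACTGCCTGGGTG
Sult2a7 downstream Kap1 site of both ages: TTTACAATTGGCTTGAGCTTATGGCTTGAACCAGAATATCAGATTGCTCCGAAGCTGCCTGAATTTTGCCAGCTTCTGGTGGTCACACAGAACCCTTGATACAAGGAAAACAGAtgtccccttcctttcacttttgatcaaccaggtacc
Sult2a7 intron Kap1 site of both ages: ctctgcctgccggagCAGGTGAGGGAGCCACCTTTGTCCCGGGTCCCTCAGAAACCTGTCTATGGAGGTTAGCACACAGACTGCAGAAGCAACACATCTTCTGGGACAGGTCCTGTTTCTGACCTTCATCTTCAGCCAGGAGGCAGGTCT

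The lists held 19350 H3K14ac peaks in young and 20463 in old liver, 50583 and 13877 Setdb1 peaks, and 48915 and 22141 Kap1 peaks. Most peaks had the smallest width of their list, which was 500 bp in the H3K14ac lists, 200 bp in those of Setdb1 and 150 bp in those of Kap1, and the read depth behind them is unknown. The old Setdb1 and Kap1 lists were shorter than the young ones over the whole genome, and each difference with age given for the phase II genes stands beside that shift. Among markers of liver cell types, 9 of 16 hepatocyte genes had H3K14ac within 1 kb of a start site at either age, among them Apoa1, Apob and Pck1 at both. None of the 5 Kupffer cell, 6 endothelial and 7 lymphocyte genes found did, against 1 of 6 stellate cell genes (Reln), 1 of 6 cholangiocyte genes (Sox9) and 1 of 6 neuron genes (Syt1). Of the hepatocyte genes, 8 had such a peak in young and 6 in old liver. The shares over all protein-coding genes were 19.0% and 27.6%.

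Peaks were found in the windows of 42 of the 57 phase II genes, or 73.7%, against 81.3% of all protein-coding genes. H3K14ac peaks occurred at either age in 30 genes (52.6% against 53.0% of all genes), and Setdb1 or Kap1 peaks in 37 (64.9%, the same share as over all genes). All 9 Sult2 genes, all 9 Ugt1a genes, the 3 Ugt2a genes and both Ugt3a genes had a peak, whereas none of the 3 Gstp genes did. The 15 genes without a peak in any list were Gsta1, Gsta3, Gstm2, Gstm5, Gstm6, Gstm7, Gstp1, Gstp2, Gstp3, Gstt2, Ugt2b1, Ugt2b35, Ugt2b37, Sult1a1 and Sult3a1. Gstp1 is a major glutathione transferase of male mouse liver, and Sult1a1 the main phenol sulfotransferase. The heat map of peak numbers gives the counts of every member.

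**Figure D1:**
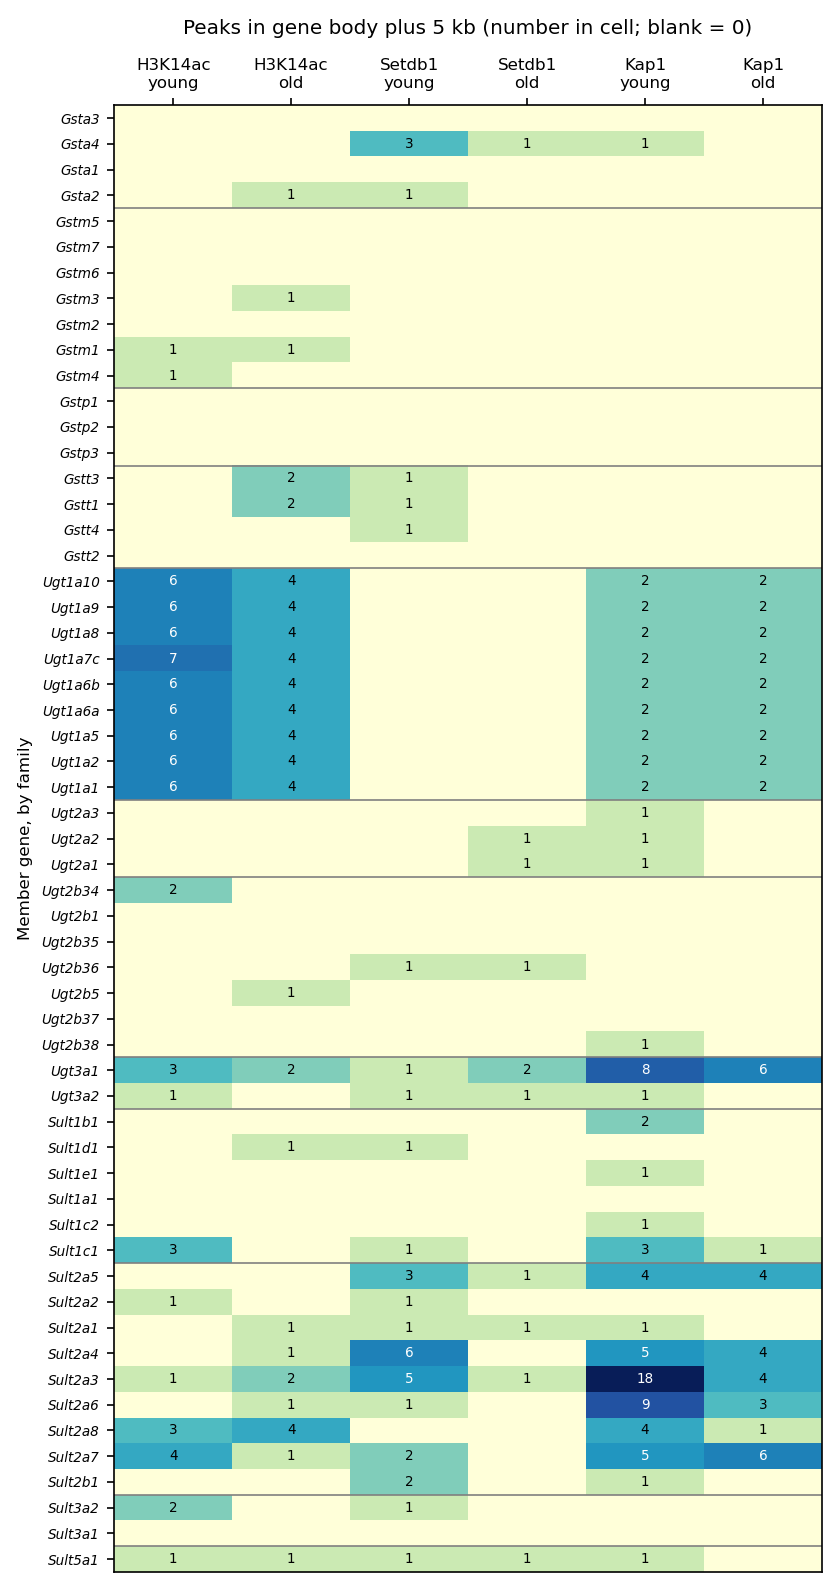
Number of peaks of each list (columns) in the gene body plus 5 kb of each of the 57 phase II genes (rows, grouped by family with grey lines between families); darker cells hold more peaks and blank cells hold 0. Kap1 peaks gather in Ugt3a1 and the Sult2a genes, with 18 in Sult2a3 in young liver, and the 9 Ugt1a genes repeat nearly the same values because they share their 3′ exons.

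H3K14ac marked 21 phase II genes in young liver, 36.8% (25.5% to 49.8%) against 33.6% of all genes, and 24 in old liver, 42.1% (30.2% to 55.0%) against 42.0%. The share of phase II genes with H3K14ac was thus within counting error of that of all genes at both ages. The 9 Ugt1a genes enter these counts through 1 shared stretch of DNA at the edge of a 101-kb run of peaks, and without them 12 of 48 genes in young (25.0%, 14.9% to 38.8%) and 15 of 48 in old liver (31.2%, 19.9% to 45.3%) had H3K14ac. Setdb1 peaks lay in 20 genes in young liver, 35.1% (24.0% to 48.1%) against 44.9%, and in 10 genes in old liver, 17.5% (9.82% to 29.4%) against 18.5%. Both intervals include the background. Without the Sult2 genes Setdb1 lay in 12 of 48 genes in young liver, 25.0% (14.9% to 38.8%), and in 7 of 48 in old liver, 14.6% (7.25% to 27.2%). That young interval is below the background, but the 48 genes include the 9 Ugt1a genes, which share 1 locus without a Setdb1 peak. Since this locus is counted 9 times, the interval is too narrow to read a deficit from. Kap1 peaks lay in 29 genes in young liver, 50.9% (38.3% to 63.4%) against 35.2%, and in 17 genes in old liver, 29.8% (19.5% to 42.7%) against 19.8%. The young interval lies above the background and the old interval includes it. Without the Ugt1a genes, 20 of 48 genes had Kap1 in young (41.7%, 28.8% to 55.7%) and 8 of 48 in old liver (16.7%, 8.70% to 29.6%), and both intervals include the background. Setdb1 then had the same young share as Kap1, 20 of 48 genes. The windows of the phase II genes had a median length of 28397 bp, close to the 27629 bp of all genes.

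All genes with Kap1 in old liver also had it in young liver, whereas genes with H3K14ac or Setdb1 at 1 age alone were found at each age. H3K14ac was found at both ages in 15 genes, in young liver alone in 6 (Gstm4, Sult1c1, Sult2a2, Sult3a2, Ugt2b34 and Ugt3a2) and in old liver alone in 9 (Gsta2, Gstm3, Gstt1, Gstt3, Sult1d1, Sult2a1, Sult2a4, Sult2a6 and Ugt2b5). Over all genes the corresponding numbers were 4699, 2292 and 4040. Setdb1 was found at both ages in 8 genes, in young liver alone in 12 and in old liver alone in 2, Ugt2a1 and Ugt2a2, which share the peak, against 2676, 6670 and 1179 over all genes. Kap1 was found at both ages in 17 genes, in young liver alone in 12 and in old liver alone in none. The numbers over all genes were 2735, 4599 and 1379. The 9 Ugt1a genes, which count the same peaks, are among those with H3K14ac and with Kap1 at both ages, and without them 6 genes had H3K14ac and 8 had Kap1 at both ages. Over all genes, 1379 of the 4114 genes with Kap1 in old liver had none in young liver, and among the 80 cytochrome P450 genes 6 of 24 did.

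Overlapping windows were merged into 42 windows of 1.60 Mb so that each peak counted once. H3K14ac peaks in them numbered 30 in the young and 25 in the old list, so that the ratio of old to young was 0.833, against 1.21 over the windows of all genes and 1.07 over chromosomes 1 to 19. Its direction depended on the window, since the ratio was 1.05 in the gene bodies alone, and in base pairs covered it was 0.965. Part of the fall came from the stretch shared by the Ugt1a genes, which was called as 7 pieces in young and 4 in old liver. Without the Ugt1a genes the H3K14ac peaks numbered 23 and 21, a ratio of 0.913. The ratio for Setdb1, from 34 to 10 peaks, was 0.294 against 0.264 over all genes, and that for Kap1, from 70 to 31 peaks, 0.443 against 0.445. The lower numbers of Setdb1 and Kap1 peaks in old liver were therefore close to those over all genes. In base pairs covered, Kap1 kept 0.770 of its young length, since the wide Ugt1a1 peak was in both lists. The Sult2 genes weighed on the Setdb1 ratio, which without them was 0.538, with 13 peaks in young and 7 in old liver.

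The Kap1 density rested on the Sult2 windows, which held 47 of the 70 young and 22 of the 31 old peaks. All phase II windows held 43.6 Kap1 peaks per Mb in young and 19.3 in old liver, against 16.9 and 7.53 over all genes, and without the Sult2 genes 21.1 and 8.24. H3K14ac density was 18.7 and 15.6 peaks per Mb against 9.76 and 11.8, and 19.2 and 13.7 without the Sult2 genes, which was then further above all genes in young liver than that of Kap1. The value of 19.2 still counts the 7 young pieces of the Ugt1a stretch. Without the Ugt1a genes, and with the Sult2 genes kept, H3K14ac density was 16.1 and 14.7. Setdb1 density was 21.2 and 6.23 against 19.5 and 5.15, and 11.9 and 6.41 without the Sult2 genes. The 80 cytochrome P450 genes of the families Cyp1 to Cyp4, the phase I enzymes, had densities of 37.0 and 22.2 peaks per Mb for Kap1 and 18.3 and 20.8 for H3K14ac. These densities, too, were above those of all genes.

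**Figure D2:**
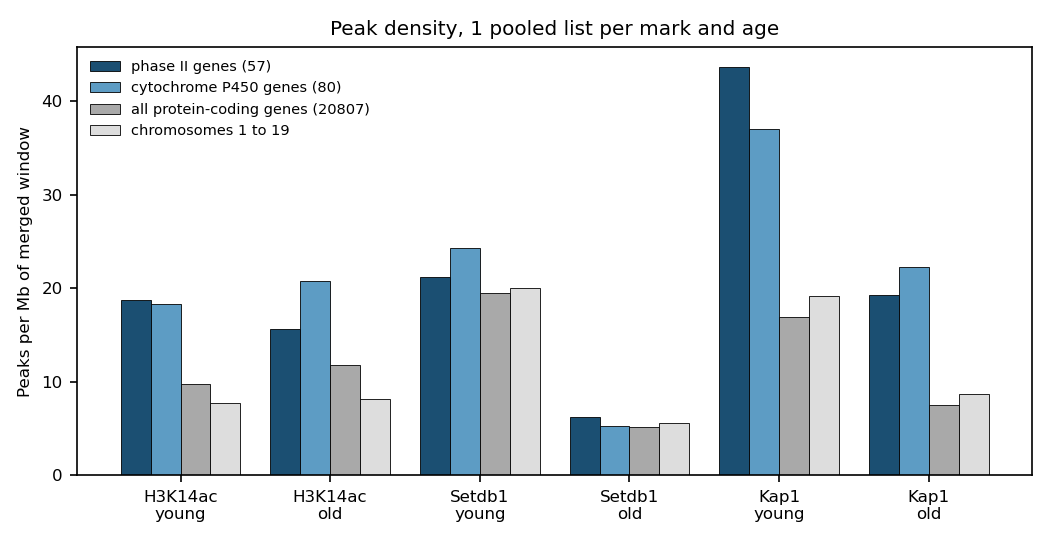
Peaks per Mb of merged window (vertical axis) in each of the 6 lists for the phase II genes, the cytochrome P450 genes, all protein-coding genes and chromosomes 1 to 19 as a whole; each bar is 1 pooled list, so there are no error bars. Phase II and P450 windows both stand above all genes in Kap1, with 43.6 and 37.0 peaks per Mb in young liver against 16.9, but the phase II value without the Sult2 genes, which is not drawn, was 21.1.

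The windows of the glutathione transferases held 2 H3K14ac peaks in young and 6 in old liver, or 6.08 and 18.2 per Mb, and a single Kap1 peak, in young liver. Gsta4, which clears lipid peroxidation products such as hydroxynonenal, had no H3K14ac peak. It had 1 Kap1 peak in young liver, and its Setdb1 peaks numbered 3 in young and 1 in old liver. None of its Setdb1 peaks shared bases between ages. Gsta2 had 1 Setdb1 peak in young liver and 1 intronic H3K14ac peak in old liver. The 7 Gstm genes on chromosome 3 had no Setdb1 and no Kap1 peak at either age, and their 4 H3K14ac peaks fell on Gstm1 (1 in each list), Gstm4 (1 in young liver) and Gstm3 (1 in old liver). The theta class genes on chromosome 10 had no H3K14ac peak in young liver and 3 in old liver, of which 1 covered the start site of Gstt3, 1 lay in an intron of Gstt1 and 1 in the flank of Gstt3 at the start site of Ddt, the neighboring D-dopachrome tautomerase gene. Setdb1 had 2 peaks there in young liver, near Gstt3 and Gstt1 and at the start site of Gstt4, and none in old liver. Both directions were those of all genes, where the ratio of old to young was 1.21 for H3K14ac and 0.264 for Setdb1.

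The Ugt1a genes form 1 locus on chromosome 1, in which each gene has its own promoter and opening exon and all share the 3′ exons. Ugt1a1, the enzyme that conjugates bilirubin, lies last and nearest to the shared exons. No peak of any list lay in the windows upstream of its own, so that the start sites of the other 8 genes carried no peak within 1 kb. At Ugt1a1, by contrast, a Kap1 peak of 13579 bp in young liver (chr1:88211479-88225057) began 480 bp upstream of the start site and ran through the gene to past its end. In old liver the corresponding peak was 13558 bp wide, and its edges differed from the young ones by 15 bp at the start and 36 bp at the end. Each was the third widest peak of its list. H3K14ac peaks filled 89.8% of the young Kap1 peak in young and 93.5% in old liver, in 7 and 4 pieces, and the piece over the start site had a width of 4845 bp at the young and 4843 bp at the old age. A separate Kap1 peak of 150 bp lay about 1.7 kb upstream at both ages, with 140 bases shared. No Setdb1 peak lay in the locus.

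The peaks at Ugt1a1 were the edge of a longer stretch. With peaks of all 6 lists joined across gaps of up to 2000 bp, a run of 101 kb extended from 1703 bp upstream of the Ugt1a1 start site through Mroh2a and Hjurp into Trpm8. It was the longest of 122425 such runs. H3K14ac peaks covered 81.3% of it in young and 83.0% in old liver, whereas the cover by Kap1 was 84.4% and 81.9%. Of all 100-kb bins with a peak, the bin that holds most of the run was the most covered in both H3K14ac lists, both Kap1 lists and the young Setdb1 list. The Setdb1 peaks nearest to the wide Kap1 peak lay 11744 bp beyond its end in young and 23676 bp in old liver, in the same run. All peaks counted for the Ugt1a genes belong to this run. The lists hold no input depth, so neither input depth nor copy number of the run was examined, what sets its extent was not tested, and the Ugt1a1 peaks, their sharing between ages and their meetings of H3K14ac with Kap1 carry this limit.

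**Figure D3:**
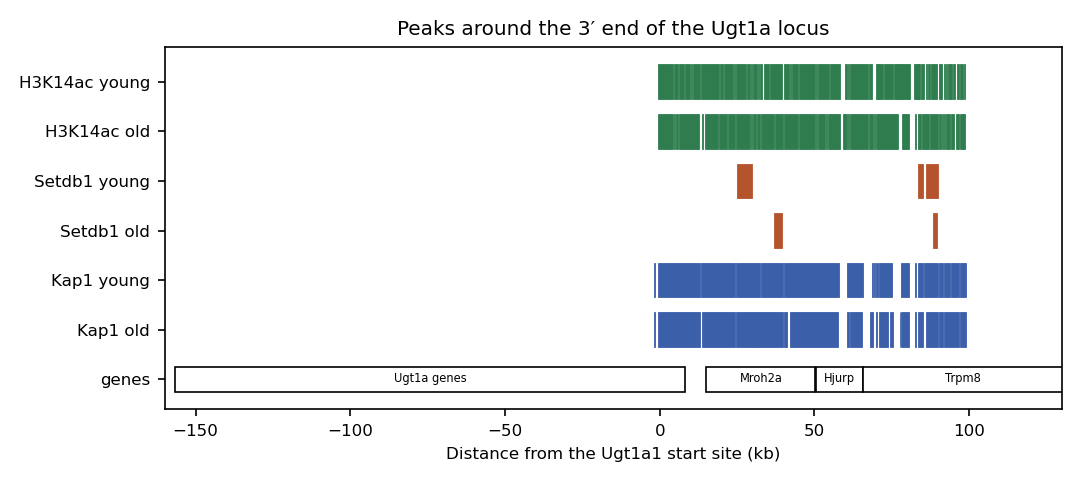
Peaks of the 6 lists (colored blocks, 1 row per list) by distance from the Ugt1a1 start site in kb (horizontal axis), with the genes of the region drawn as boxes in the lowest row. H3K14ac and Kap1 peaks fill about the same 101 kb at both ages, starting at Ugt1a1 and ending inside Trpm8, while the rest of the Ugt1a locus is empty.

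The Ugt2 genes on chromosome 5, which conjugate steroids and bile acids, had few peaks. Among the 7 Ugt2b genes, Ugt2b34 had 2 H3K14ac peaks in young liver, on either side of its start site, and none in old liver, and Ugt2b5 had 1 in old liver. Ugt2b36 had 1 Setdb1 peak at each age, which did not overlap, and Ugt2b38 had 1 Kap1 peak in young liver. The Ugt2a genes had no H3K14ac peak at either age. Their 2 Kap1 peaks were in young liver, and their Setdb1 peak in old liver covered the start site of Ugt2a2.

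Ugt3a1, of a family whose human members use sugars other than glucuronic acid, was, with Sult2a3, 1 of 2 members whose windows held peaks of all 3 marks at both ages. It had 3 H3K14ac peaks in young and 2 in old liver, 1 and 2 Setdb1 peaks, and 8 and 6 Kap1 peaks. Of all 20807 genes, 2.79% had 8 or more Kap1 peaks in young liver and 1.49% had 6 or more in old liver. Most of the peaks lay in the introns from about 20 kb past the start site to the last exons. At 1 intronic site, the sequence of 298 bases shown above, H3K14ac and Kap1 peaks met in young and in old liver, and the bases common to all 4 peaks number 267. The old Setdb1 peak at the Setdb1 and Kap1 site shared 116 bases with an old Kap1 peak, and both overlapped a young H3K14ac peak. The neighboring Ugt3a2 had 1 peak in each young list and 1 in the old Setdb1 list.

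**Figure D4:**
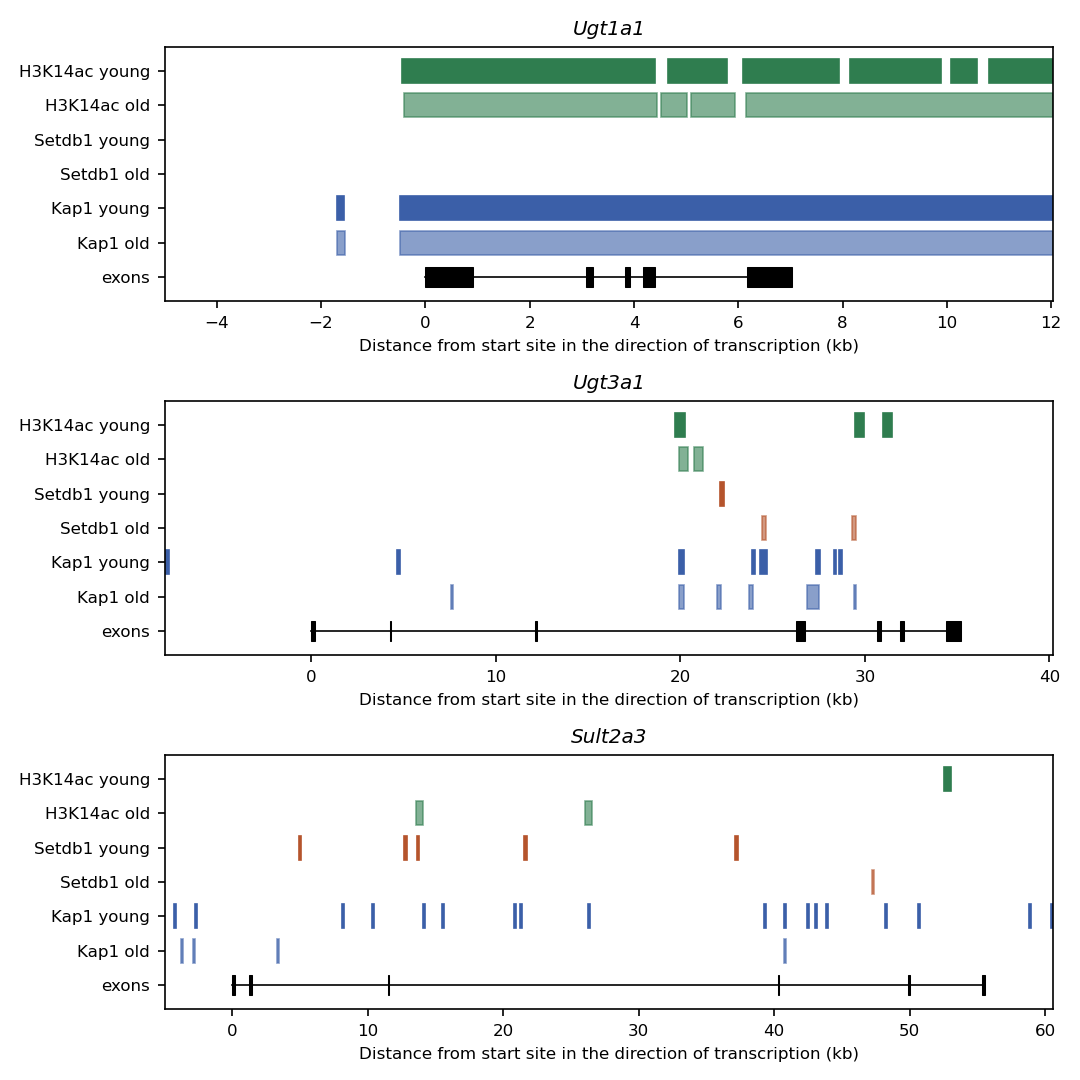
Peaks of the 6 lists (rows; full color for young, pale for old) along the windows of Ugt1a1, Ugt3a1 and Sult2a3 by distance from the start site in kb, in the direction of transcription, with exons as black boxes in the lowest row. Ugt1a1 is filled by wide H3K14ac and Kap1 peaks at both ages, Ugt3a1 holds narrow peaks of all 3 marks in its distal introns, and Sult2a3 holds 18 Kap1 peaks in young against 4 in old liver.

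The Sult1 genes had fewer peaks of each mark in old liver, namely 1 against 3 for H3K14ac, none against 2 for Setdb1 and 1 against 7 for Kap1. Sult1c1 had 3 H3K14ac peaks in young and none in old liver, 1 Setdb1 peak in young liver, and 3 Kap1 peaks in young against 1 in old liver. In young liver both an H3K14ac peak and a Kap1 peak lay within 1 kb of its start site, 236 bp and 310 bp away on opposite sides. Sult1e1, the estrogen sulfotransferase, and Sult1c2 had 1 Kap1 peak each and Sult1b1 had 2, all in young liver. Sult1d1, an enzyme of catecholamine sulfation, had no H3K14ac peak in young and 1 in old liver, 419 bp from its start site.

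The 8 Sult2a genes, hydroxysteroid sulfotransferases of bile acids and dehydroepiandrosterone, several of which are known as female-biased in mouse liver, carried most of the Kap1 peaks. They lie within 870 kb of chromosome 7 and held 46 of 70 Kap1 peaks in young (65.7%) and 22 of 31 in old liver (71.0%), 19 of 34 Setdb1 peaks in young liver (55.9%) and 3 of 10 in old liver, and 9 of 30 and 10 of 25 H3K14ac peaks. Sult2a3 had 18 Kap1 peaks in young liver and 4 in old liver. Only 0.553% of all genes, 115 in number, had as many in young liver. Sult2a6 had 9 Kap1 peaks in young and 3 in old liver and Sult2a8 had 4 and 1, whereas Sult2a7 had 5 in young and 6 in old liver and Sult2a5 had 4 at each age. Setdb1 peaks were most numerous in Sult2a4, with 6 in young and none in old liver, and in Sult2a3, with 5 and 1. Counted by gene, Setdb1 peaks were fewer in old liver in 6 of the 8 genes and more in none, Kap1 peaks fewer in 5 and more in 1, and H3K14ac peaks fewer in 2 and more in 5. The order of the marks was that of all genes: the ratio of old to young over the Sult2 genes was 1.11 for H3K14ac, 0.143 for Setdb1 and 0.468 for Kap1, against 1.21, 0.264 and 0.445. Sult2a8 had 3 H3K14ac peaks in young and 4 in old liver. Sult2a7 had the opposite order, with 4 in young and 1 in old liver. Sult2b1, a cholesterol sulfotransferase of the skin, lies apart on chromosome 7 and had 2 Setdb1 peaks and 1 Kap1 peak, all in young liver.

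Of the remaining members, Sult3a2 had 2 H3K14ac peaks and 1 Setdb1 peak in young liver and none in old liver. Sult5a1 had 1 H3K14ac peak and 1 Setdb1 peak in each list and 1 Kap1 peak in young liver. Its window lies inside the readthrough gene Gm20388, and none of its peaks shared bases between ages.

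H3K14ac was rare at the start sites of phase II genes. A peak within 1 kb of an annotated start site was found for 6 genes in young liver, 10.5% (4.91% to 21.1%) against 19.0% of all genes, and for 4 in old liver, 7.02% (2.76% to 16.7%) against 27.6%. The old interval lies below the background and the young interval includes it. The same held for the 80 cytochrome P450 genes, of which 13 had such a peak at each age (16.2%, 9.75% to 25.8%). In young liver the genes were Gstm1, Ugt1a1, Ugt2b34, Sult1c1, Sult2a7 and Sult2a8, and in old liver Gstm1, Gstt3, Ugt1a1 and Sult1d1. Gstm1, the main mu class enzyme, and Ugt1a1 were the genes marked at both ages. At Gstm1 the young and old peaks lay 120 bp apart, the young peak inside the gene and the old peak over the upstream start site and the promoter shown above. The Gstt3 peak in old liver covered the start site and also lay at that of the overlapping gene Gm20441. The order of the ages depended on the limit. Within 5 kb the counts were 8 in young (interval 7.29% to 25.3%, against 23.9% of all genes) and 10 in old liver (9.82% to 29.4%, against 32.7%), and 2 genes in young (3.51% against 8.62%) and 3 in old liver (5.26% against 14.5%) had the start site inside the peak itself. Setdb1 was found at a start site of Gstt4 in young and of Ugt2a2 in old liver, against 4.05% and 1.20% of all genes, and Kap1 at those of Ugt1a1 at both ages and of Sult1c1 in young liver, against 5.48% and 2.36%. Most other peaks lay in introns, which held 13 of 30 and 15 of 25 H3K14ac peaks, 25 of 34 and 6 of 10 Setdb1 peaks, and 47 of 70 and 25 of 31 Kap1 peaks of young and old liver.

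Few sites were shared between the ages. Of the H3K14ac peaks 8 of 30 in young (26.7%, 14.2% to 44.4%) and 5 of 25 in old liver (8.86% to 39.1%) overlapped a peak of the other age, against 20.8% and 20.0% over chromosomes 1 to 19. All but 1 at each age belonged to the Ugt1a locus, and without it the counts were 1 of 23 and 1 of 21, the Ugt3a1 site. Of the Kap1 peaks 8 of 70 (11.4%, 5.91% to 21.0%) and 8 of 31 (25.8%, 13.7% to 43.2%) had such a partner, against 7.63% and 17.0%. Outside Ugt1a1 these lay in Ugt3a1 (3), Sult2a7 (2) and Sult2a3 (1). Setdb1 had a single site in common, the intron of Sult2a5 shown above, where young and old peaks shared 188 bases. Every other Setdb1 peak of the phase II genes, 33 in young and 9 in old liver, was without a partner at the other age. Such partners were rare over chromosomes 1 to 19 too, at 0.869% in young and 3.12% in old liver, and the members' intervals of 0.521% to 14.9% and 1.79% to 40.4% include these shares.

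At the same age H3K14ac met Kap1 but not Setdb1. In young liver 9 of 30 H3K14ac peaks (interval 16.7% to 47.9%) overlapped a Kap1 peak, against 11.9% over chromosomes 1 to 19, and in old liver 6 of 25 (24.0%, 11.5% to 43.4%) against 6.46%. Without the Ugt1a genes the counts were 2 of 23 (8.70%) and 2 of 21 (9.52%), near those shares. The Ugt3a1 site was among them at both ages, the others being the flank of Sult2a7 in young and that of Sult2a8 in old liver. No H3K14ac peak met a Setdb1 peak of its age, 0 of 30 in young and 0 of 25 in old liver, against 2.71% and 0.820%, and the upper interval bounds of 11.4% and 13.3% include those shares. The only meeting of Setdb1 with Kap1 at the same age was the old site in Ugt3a1, 0 of 34 Setdb1 peaks in young and 1 of 10 in old liver, against 2.08% and 1.82%. Peaks of different marks also met across ages outside the Ugt1a genes. Old H3K14ac peaks held young Setdb1 peaks in Sult2a4 and Sult2a3, with 200 bases shared at each, and a young Kap1 peak in Sult2a3, with 150. In Ugt3a1 an old Setdb1 peak shared 200 bases with a young Kap1 peak and a young Setdb1 peak 64 bases with an old Kap1 peak. The other such pairs outside the Ugt1a genes were also in Ugt3a1, between H3K14ac and Kap1 or Setdb1 peaks. For meetings across ages the share over all peaks was not computed, so these pairs give positions only and no change with age can be read from them.

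The Kap1 peaks of the phase II genes were rich in repeats. The median share of repeat-masked bases was 42.3% in young and 51.3% in old liver, against 16.0% and 17.7% for all Kap1 peaks. It was highest in the Sult2a genes, with medians of 60.3% and 62.7%, whereas the other phase II genes had 2.58% in young and 19.6% in old liver. The DNA itself differed in the same direction: 51.0% of the Sult2 windows was repeat-masked, 39.8% of all phase II windows, 40.9% of the cytochrome P450 windows and 27.7% of the windows of all genes. For H3K14ac peaks the medians in the Sult2a genes and in the others were 29.8% and 11.8% in young liver and close to each other in old liver, at 20.4% and 20.9%. The Setdb1 peaks of the Sult2a genes had a median of 50.5% in young liver (19 peaks) and 13.7% in old liver (3 peaks), where the other members had 25.5%. The part of the repeats in the numbers of peaks was not tested. Since reads were kept only where they aligned to a single place, peaks in near-identical copies of these gene families can be missing. Another copy in the genome (at least 90% of the length at 95% identity) was found for none of the H3K14ac peaks, against 1.92% and 1.25% over chromosomes 1 to 19. It was found for 2 of 34 young Setdb1 peaks (5.88%, 1.63% to 19.1%) against 0.838%, and for 1 of 10 old ones (1.79% to 40.4%) against 1.05%. Both Setdb1 intervals lie above these shares, but they rest on 2 peaks and 1 peak, too few to read an excess from. For Kap1 a copy was found for 2 of 70 (2.86%, 0.787% to 9.83%) against 5.27% and 1 of 31 (3.23%, 0.572% to 16.2%) against 6.55%. The old Setdb1 peak and the old Kap1 peak with a copy were those that met in Ugt3a1.

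**Figure D5:**
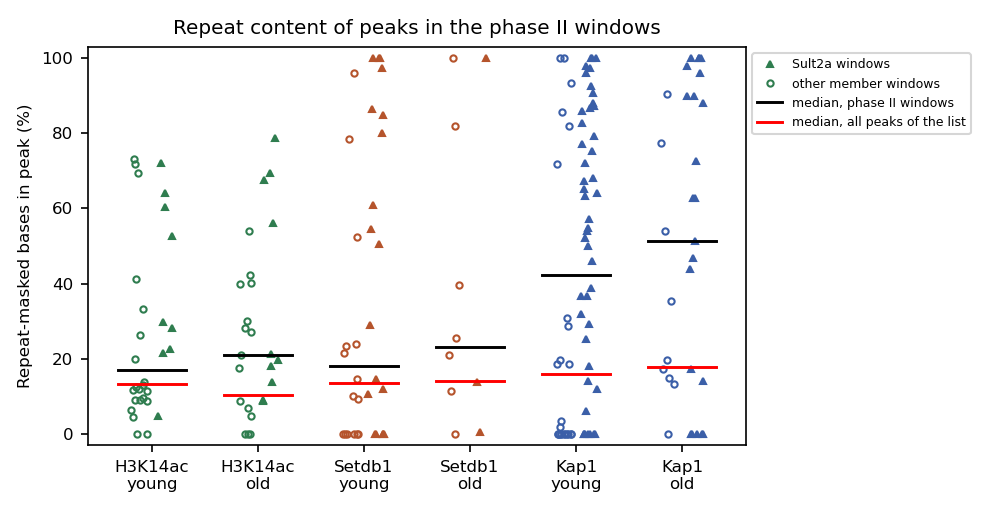
Repeat-masked bases in percent of each peak (vertical axis) in the phase II windows for the 6 lists; triangles are peaks in Sult2a windows, open circles those of the other members, black lines the medians of all phase II peaks and red lines the medians of all peaks of the list on chromosomes 1 to 19. Kap1 medians of 42.3% and 51.3% stand above the 16.0% and 17.7% of the whole lists, with most of the high values from Sult2a.

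The promoters of 50 members were in the RefSeq table, as 59 windows from 250 bases before to 50 bases after a start site, and were searched on both strands for 5 short motifs. ATTGAT, recognized by Onecut factors, was in 8 of the 59 member promoters (13.6%) against 7.54% of all 32851 promoters, and ATCGAT in 1 (1.69%) against 0.925%. AGGTCA, recognized by nuclear receptors, was in 11 (18.6%) against 16.3%. GCGTG, the core of the Ahr site, was in 13 (22.0%) against 32.4%, and TGACNNNGC, the core of the antioxidant response element of Nfe2l2, in 3 (5.08%) against 12.4%. With counts this small the counting error is wide. No interval was computed for these shares and no difference was tested, so neither an excess nor a lack of a motif can be read from them. In the Ugt1a1 promoter above, ATCAAT, the reverse form of ATTGAT, begins 48 bases before the start site, under H3K14ac and Kap1 peaks at both ages. In that of Gstm1, GCGTG begins 76 bases before the start site, under the old H3K14ac peak. A match describes the sequence and not binding.

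Other genes of the pathway, from a list of 53 that held regulators, cofactor supply and further conjugating enzymes, were counted in the same way. Of the 52 found in the annotation, H3K14ac was within 1 kb of a start site in 20 in young and 23 in old liver, whereas Setdb1 was so in 1 (Sult4a1, young) and Kap1 in none. The shares over all genes were 19.0% and 27.6% for H3K14ac, 4.05% and 1.20% for Setdb1, and 5.48% and 2.36% for Kap1. Among 15 regulators the H3K14ac numbers were 9 and 11. Nfe2l2, the activator of the antioxidant response, had no such peak in young and 3 in old liver, and Nr1i3 had 3 and none. Onecut1 had 1 and 4, and Rxra, the partner of the nuclear receptors, 2 at each age. Among 13 genes of cofactor supply the numbers were 5 and 7, with Gss and Gclm of glutathione synthesis, Mat1a, which makes S-adenosylmethionine, and Ugdh, which makes UDP-glucuronic acid, marked at both ages and Papss1 and Papss2, which make the sulfate donor, in old liver only. Among 24 other conjugating enzymes they were 6 and 5, with Gstz1, Gstcd and Nqo2 marked at both ages.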

How the data were processed

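Chromatin immunoprecipitation sequencing was done on frozen liver. The authors aligned reads to mm10 with BWA, removed duplicates, kept uniquely aligned reads, combined the livers of an age and used PeakSeq to call peaks relative to input. The 6 deposited lists give peak positions only, with no height, score or p-value, and the total reads are not given in the sources used here. The 4 sequential precipitation samples were not used. Genes were from GENCODE M21 basic, and overlaps (at least 1 bp), widths and partners were computed in Python 3.11.15 with scipy 1.17.1 and pysam 0.24.0. Overlap counts were tested on simulated data: all 300 windows gave the count of bedtools 2.31.1, and all 200 planted peaks were found. Further copies were sought with minimap2 2.31. Sequences were from GRCm38, with promoters from RefSeq (GRCm38.p6), which held 50 of the 57 members and not Gsta4, Gstt2, Sult2a1, Sult2a2, Sult2a7, Ugt1a6b and Ugt3a2.

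The members and gene lists were chosen with earlier results of these data known. Genes were named if they had H3K14ac within 1 kb of a start site, were among the 3 with the most peaks of a list (ties in alphabetical order), or had a peak shared with the other age or another mark. The remaining members, including those without a peak, fall outside this rule and were named after their values were seen, to account for every member. Alternatives were windows without a flank or with 10 kb, peak midpoints, merging of peaks within 1000 bp, base pairs, gaps of up to 500 bp, overlap of 50%, start sites within 0 or 5 kb and leaving out the Ugt1a genes. Leaving out the Sult2 genes, leaving out the Ugt1a genes for start sites, meetings of marks and densities, and joining peaks into runs were chosen after seeing the data. Of the pathway list, 1 regulator is counted without being named, and 1 motif of the planned search is not reported here.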

Additional observations from a re-analysis of the deposited data

How the results depend on the processing

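No paired analysis was possible because each list pools the livers of an age. Leaving out single livers was not possible either. Of 95 values recomputed for 25 results, 80 kept within 1.5 times the count or density or within the counting interval and 15 did not. Without the Ugt1a genes, the genes with H3K14ac numbered 12 in young and 15 in old liver and those with Kap1 in old liver 8, H3K14ac peaks with a partner at the other age made up 4.35% in young and 4.76% in old liver, and H3K14ac peaks that met Kap1 8.70% and 9.52%. Without the Sult2 genes, 12 genes (25.0%) had Setdb1 in young liver and 11 had Kap1 in old liver, and the peaks per Mb were 11.9 for young Setdb1, 21.1 for young Kap1 and 8.24 for old Kap1. The ratio of old to young Kap1 was 0.770 in base pairs covered, since the wide Ugt1a1 peak was in both lists. H3K14ac start sites numbered 2 in young liver where the site had to lie within the peak, and 10 in old liver within 5 kb. With 10 to 70 peaks per list in these windows and no heights, small differences between ages were not detectable.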
